A study of Homo sapiens with 6 samples.

Results

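The genes of the nuclear lamina and the nuclear envelope were followed in EndoC-βH3, a line of human beta cells that carries SV40 large T antigen and telomerase as removable transgenes, by ATAC-seq, in which a transposase cuts open chromatin. Treatment for 3 weeks with 4-hydroxy tamoxifen activates Cre, removes the transgenes and gives the senescent group, while the non-senescent cells were controls, and the labels call both genotypes WT. Each group had 3 libraries, made from 100000 cells each. All libraries came from 1 cell line, and transgene loss, the drug and senescence cannot be told apart in this design. The members were LMNA, LMNB1, LMNB2, LBR, TMPO, BANF1, LEMD3, SUN1, SUN2 and SYNE2, chosen for their function. Of the 108542 accessible regions in the deposited table, 61 belonged to them. A promoter region, of which there were 25, reached to within 2 kb of the start of any protein-coding transcript of a member. A distal region, of which there were 36, had its nearest coding start in a member, within 100 kb.

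The nuclear lamina is a meshwork of lamins under the inner nuclear membrane to which heterochromatin is tethered. A-type lamins are encoded by LMNA, and B-type lamins by LMNB1 and LMNB2. LBR, the LEM-domain proteins encoded by TMPO and LEMD3, and BANF1, a DNA-binding protein that LEM domains hold, link the lamina to chromatin, while SUN proteins and the nesprin encoded by SYNE2 form the LINC complex, which couples the nucleus to the cytoskeleton. Loss of lamin B1 is a widely used marker of senescent cells.

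The deposited table gives each region a mean signal, which is the normalised read count averaged over all libraries, and a log2 fold change with its standard error (SE). It holds no value for a single library, so levels by group, the depth of each library and the overlap of the groups cannot be given, and the SE rests on 3 against 3 libraries that the labels do not trace to separate cultures. Which group is the numerator is not said. Senescent over non-senescent was assumed, so that a negative value stands for lower accessibility in senescent cells, and all directions rest on that reading. On this scale 1 region at the promoter of MKI67, a proliferation marker, was at -0.53 with an SE of 0.097 (adjusted p = 4.61e-07, Wald test of the deposited DESeq2 fit). Another was at -1.35 with an SE of 0.3 (adjusted p = 5.42e-05). Regions count as called here where the adjusted p is under 0.05 and the fold change over 1.5, which is 0.58 on the log2 scale. In bulk libraries, a change in the share of cells with an open region and a change within each cell cannot be told apart. As to the labelled cell type, 15 of 15 beta cell markers had a promoter region, with mean signals from 405 to 7890. Among markers of other cells, 7 of 7 for other endocrine cells, 4 of 6 for exocrine cells, 3 of 5 for fibroblasts and 2 of 5 for immune and endothelial cells had one. The median signals of these markers were 1630 for beta cells, 195 for other endocrine cells, 584 for exocrine cells, 93.5 for fibroblasts and 381 for immune and endothelial cells. At the promoter region of highest mean signal, called markers were 1 higher and 1 lower of 15 for beta cells and 3 lower of 7 for other endocrine cells. Over such regions of all genes, 1.53% were called higher and 7.59% lower. The part of the called markers in the results was not tested. PRSS1, CFTR, COL3A1, PDGFRB, PTPRC, CD3E and VWF had no promoter region.

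The regions that carry the results are shown first, as reference sequence of hg38 in lower case, with matches to the motifs searched in capitals. The motifs were AP-1 (TGANTCA), CRE (TGACGTCA), E2F (TTTCCCGC, TTTCGCGC, TTTGCCGC or TTTGGCGC), CHR (TTTGAA), the CCAAT box (CCAAT), FOX (TGTTTAC), MAF (TGCTGAC), homeodomain (TAATTA), ETS (CCGGAAG), the GC box (GGGCGG), the E-box (CACGTG), CTCF and a single arm of the p53 element, each read on both strands. None of the printed matches overlapped another. A match describes the letters alone and shows no bound factor.

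Among the strongest promoter regions of the members, those of LMNB1 and TMPO had the largest falls, and their sequences before the start, which RefSeq (GRCh38.p14) gives, are printed on the strand of the gene. The first line is the 250 bases before the first start of LMNB1, with no match, and the second is a stretch of 30 bases before its canonical start, shown because it holds an inverted CCAAT box and an E-box. The third is the 250 bases before the canonical start of TMPO, with a CCAAT box at 2 positions and an inverted GC box.
LMNB1, first start, chr5:126776373-126776622: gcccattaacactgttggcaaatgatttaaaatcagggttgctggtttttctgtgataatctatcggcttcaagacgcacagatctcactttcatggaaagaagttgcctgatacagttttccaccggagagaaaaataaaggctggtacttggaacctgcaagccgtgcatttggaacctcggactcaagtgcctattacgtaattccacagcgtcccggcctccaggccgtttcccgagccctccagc
LMNB1, canonical start, chr5:126776990-126777019: tgctccccATTGGcccatggtagtCACGTG
TMPO, canonical start, chr12:98515340-98515589: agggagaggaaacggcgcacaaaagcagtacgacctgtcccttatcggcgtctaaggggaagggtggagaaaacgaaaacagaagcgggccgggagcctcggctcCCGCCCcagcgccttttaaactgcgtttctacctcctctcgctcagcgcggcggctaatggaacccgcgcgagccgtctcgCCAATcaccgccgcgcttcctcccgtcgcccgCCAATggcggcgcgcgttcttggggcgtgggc
Of the 35116 RefSeq promoters read over 250 bases before the start, 32.0% held a CCAAT box, 9.53% held 2 or more and 42.6% held a GC box. An E-box was in 6.34%, and both a CCAAT box and an E-box were in 1.93%. These shares are for 250 bases and not for the LMNB1 stretch of 30, which was cut around its matches. All 30 of its bases lie in untranslated sequence. The RefSeq table matched 9 of the 10 members.

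Called promoter regions were found in BANF1, SUN1 and SYNE2. For BANF1 and SYNE2 the middle of the region, or the part near it outside untranslated sequence, is printed on the plus strand, and neither stretch held a match. In the 300 bases around its middle, the SYNE2 region held 1 E-box, which lies outside the printed stretch.
BANF1, lower, chr11:66004319-66004618: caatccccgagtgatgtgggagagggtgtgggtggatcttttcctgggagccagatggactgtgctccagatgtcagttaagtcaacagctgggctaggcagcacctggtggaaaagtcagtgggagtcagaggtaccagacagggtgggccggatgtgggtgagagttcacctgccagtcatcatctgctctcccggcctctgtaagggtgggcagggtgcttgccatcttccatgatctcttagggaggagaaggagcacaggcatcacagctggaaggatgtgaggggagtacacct
SYNE2, higher, chr14:64113191-64113430: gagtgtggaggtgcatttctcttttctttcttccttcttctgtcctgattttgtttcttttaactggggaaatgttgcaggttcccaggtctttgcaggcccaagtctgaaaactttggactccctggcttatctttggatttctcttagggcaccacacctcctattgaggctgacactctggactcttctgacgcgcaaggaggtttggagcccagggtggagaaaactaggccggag

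Of the called distal regions, those with the largest changes at LMNA, LMNB1, LMNB2, TMPO and SYNE2 are printed as 300 bases around the middle, on the plus strand. The lower LMNA region is 274 bp wide, so its printed stretch runs past both ends.
LMNA, lower, chr1:156089761-156090060: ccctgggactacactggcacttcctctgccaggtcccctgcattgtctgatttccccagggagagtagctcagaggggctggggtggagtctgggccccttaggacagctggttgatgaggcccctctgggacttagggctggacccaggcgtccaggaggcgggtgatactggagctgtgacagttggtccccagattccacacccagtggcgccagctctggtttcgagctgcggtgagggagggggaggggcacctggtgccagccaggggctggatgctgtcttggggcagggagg
LMNA, higher, chr1:156123696-156123995: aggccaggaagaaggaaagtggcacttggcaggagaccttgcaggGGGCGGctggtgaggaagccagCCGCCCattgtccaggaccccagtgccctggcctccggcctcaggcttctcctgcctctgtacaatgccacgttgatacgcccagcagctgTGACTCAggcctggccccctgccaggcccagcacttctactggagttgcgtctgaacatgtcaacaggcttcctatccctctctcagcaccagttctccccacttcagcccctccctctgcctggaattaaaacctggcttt
LMNB1, higher, chr5:126831257-126831556: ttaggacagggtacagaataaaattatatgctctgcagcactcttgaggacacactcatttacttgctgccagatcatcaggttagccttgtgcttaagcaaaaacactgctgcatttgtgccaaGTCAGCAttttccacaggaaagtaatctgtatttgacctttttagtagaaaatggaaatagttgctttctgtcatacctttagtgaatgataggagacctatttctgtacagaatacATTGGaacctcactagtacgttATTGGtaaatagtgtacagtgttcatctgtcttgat
LMNB2, lower, chr19:2462056-2462355: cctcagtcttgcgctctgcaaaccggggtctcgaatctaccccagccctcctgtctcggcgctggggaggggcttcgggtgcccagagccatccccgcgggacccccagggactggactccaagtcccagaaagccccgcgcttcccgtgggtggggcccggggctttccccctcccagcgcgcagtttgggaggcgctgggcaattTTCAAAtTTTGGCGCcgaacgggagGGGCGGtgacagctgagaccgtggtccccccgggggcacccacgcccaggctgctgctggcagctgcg
TMPO, higher, chr12:98533734-98534033: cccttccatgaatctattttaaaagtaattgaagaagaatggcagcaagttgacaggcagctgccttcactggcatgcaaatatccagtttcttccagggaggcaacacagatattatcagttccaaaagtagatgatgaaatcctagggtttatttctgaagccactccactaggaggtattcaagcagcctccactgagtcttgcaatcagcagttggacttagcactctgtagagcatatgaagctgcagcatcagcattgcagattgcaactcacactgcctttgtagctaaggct
SYNE2, lower, chr14:63972510-63972809: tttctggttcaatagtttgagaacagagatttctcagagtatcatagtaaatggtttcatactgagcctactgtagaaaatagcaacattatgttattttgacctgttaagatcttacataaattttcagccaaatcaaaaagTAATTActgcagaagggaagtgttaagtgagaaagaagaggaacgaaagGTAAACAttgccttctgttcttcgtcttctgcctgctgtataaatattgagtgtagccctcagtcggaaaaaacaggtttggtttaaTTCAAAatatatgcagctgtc
The higher LMNA region held an AP-1 motif and a GC box in both orientations. The LMNB2 region held a CHR motif, read on the minus strand, 1 base before an E2F motif, and a GC box after them. The SYNE2 region held a homeodomain motif, a FOX motif and a CHR motif, and the LMNB1 region a MAF motif and 2 CCAAT boxes. The lower LMNA region and the TMPO region held no match.

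Few promoter regions of the nuclear envelope genes were called, and the falls with the smallest adjusted p were at LMNB1 and TMPO, both short of the fold limit. Of the 25 promoter regions, 1 was called higher and 2 were called lower, which is 4.0% and 8.0%, against 3.56% and 9.04% of all 20095 promoter regions. By the adjusted p alone, 2 were higher and 6 were lower, which is 8.0% and 24%, against 10.2% and 34.7% of all promoter regions. The shares called under both limits lay near the background. The median log2 fold change was -0.09, against -0.13 over all promoter regions, and 16 of the 25 values were negative. At the region of highest mean signal of each gene, which stands for the gene below, none of the 10 promoters was called.

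**Figure D1:**
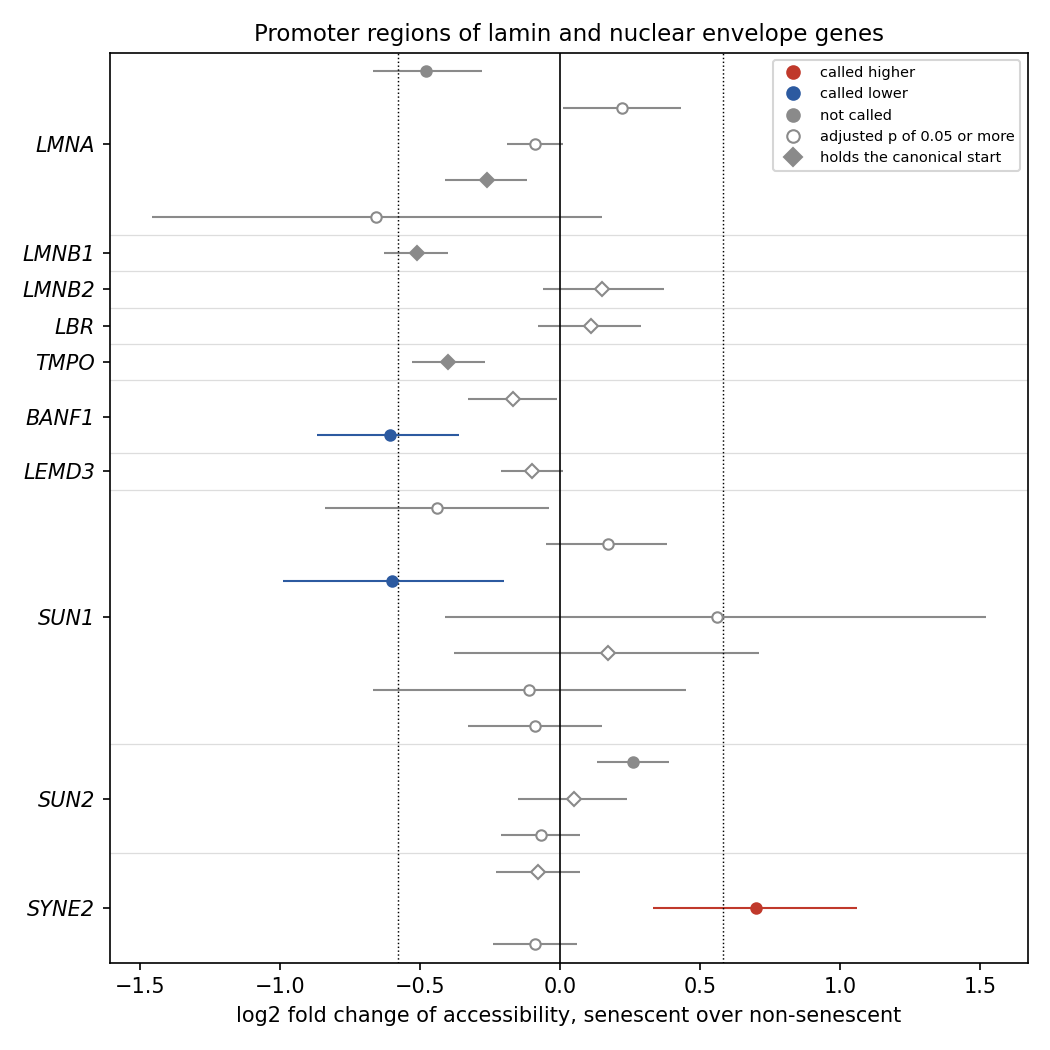
Log2 fold change with its 95% interval at each of the 25 promoter regions, grouped by gene and ordered along the direction of transcription. Dotted lines mark 0.58 on either side of 0, filled points have an adjusted p under 0.05, and LMNB1 and TMPO lie left of 0 with short intervals while 3 coloured points are called.

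Among the lamins, LMNB1 had the largest fall at its promoter. The region at chr5:126776482-126778763, which covers the first coding exon, had a mean signal of 3025, or 1326 per kb, and was at -0.51 on the log2 scale (SE 0.058, adjusted p = 2.44e-17 by the Wald test of the deposited fit). Accessibility in senescent cells was thus 0.70 times that in non-senescent cells, which is short of the fold limit, so the region was not called. The start of the divergent transcript LMNB1-DT lies within 2 kb. The fall was -0.35 (adjusted p = 2.58e-08) once trends with mean signal and with GC content had been taken out.

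LMNB2, the other B-type lamin gene, had 1 promoter region, at chr19:2456916-2457377, with a mean signal of 315 and a log2 value of 0.15 (SE 0.11, adjusted p = 0.256), which became 0.33 (adjusted p = 0.00872) without the signal and GC trends. The difference between LMNB2 and LMNB1 was 0.67 on the log2 scale, with a 95% interval from 0.43 to 0.91 in which the errors of both are taken as independent. LMNA had 5 promoter regions, spread over several start sites. The strongest, at chr1:156105919-156106627 within an intron, had a mean signal of 3633, or 5131 per kb, the highest of the 61 regions on both scales. Its log2 fold change was -0.09 (SE 0.05, adjusted p = 0.131), and it was centred at -8438 bp from the canonical start. The region that holds the canonical start, at chr1:156114454-156115662, had a mean signal of 854 and a log2 value of -0.26 (SE 0.072, adjusted p = 0.000947), which became -0.07 (adjusted p = 0.447) without the signal and GC trends. The region farthest upstream, at chr1:156082282-156083425, fell by 0.48 on the log2 scale (SE 0.098, adjusted p = 9.25e-06), and MEX3A has a start there too. The remaining regions had values of 0.22 (adjusted p = 0.089) and -0.66 (adjusted p = 0.194), the latter at a mean signal of 27.8. LMNB1 lay below LMNA by 0.42 (95% interval 0.27 to 0.57).

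Of the genes that link the lamina to chromatin, TMPO had the clearest fall. Its promoter region at chr12:98515130-98516607, over the first coding exon and shared with the start of TMPO-AS1, had a mean signal of 1035 and a log2 value of -0.40 (SE 0.065, adjusted p = 1.76e-08). Without the signal and GC trends it was -0.20 (adjusted p = 0.00892). LBR, the lamin B receptor, had a promoter value of 0.11 (SE 0.095, adjusted p = 0.389) at chr1:225426764-225428729, with a mean signal of 636. Its value was 0.33 (adjusted p = 0.0026) without the signal and GC trends. LEMD3, which encodes the inner membrane protein MAN1, had a value of -0.10 (SE 0.056, adjusted p = 0.134) at chr12:65169128-65170852, with a mean signal of 1628. As deposited, the intervals of LBR and LEMD3 held 0 and ended short of the fold limit, from -0.08 to 0.29 and from -0.21 to 0.01. BANF1 had a value of -0.17 (SE 0.08, adjusted p = 0.0745) at chr11:66001515-66002959, a region with a mean signal of 789 in which EIF1AD also starts. The second BANF1 region, at chr11:66004269-66004669 just past the gene, with a mean signal of 219, was called lower at -0.61 (SE 0.13, adjusted p = 1.91e-05). It passed the fold limit by little and was -0.53 without the trend on mean signal, which ended the call.

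The genes of the LINC complex showed no common direction at their promoters. SUN1 had 7 promoter regions, of which the strongest, at chr7:816455-816707, had a mean signal of 430 and a log2 value of 0.17 (SE 0.11, adjusted p = 0.211). The region downstream of it at chr7:817065-817618, in an untranslated part of an exon and with a mean signal of 106, was called lower at -0.60 (SE 0.2, adjusted p = 0.0096), and was -0.43 (adjusted p = 0.0747) without the trend on GC content. The difference between these neighbours was -0.77 (95% interval -1.22 to -0.32). The region at the canonical start of SUN1 had a mean signal of 47.3 and a value of 0.17 (SE 0.28, adjusted p = 0.659), and the other 4 ranged from -0.44 to 0.56 with adjusted p of at least 0.0714.

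SUN2 had its strongest promoter region at chr22:38793723-38794644, with a mean signal of 1216 and a log2 value of 0.26 (SE 0.065, adjusted p = 0.000343). That region lies over the first exon of DNAL4, at -38185 bp from the canonical start of SUN2, where another coding transcript of SUN2 begins. Without the signal and GC trends its value was 0.43 (adjusted p = 1.27e-09). At the canonical start the value was 0.05 (SE 0.099, adjusted p = 0.729), with a mean signal of 482, and in the next region it was -0.07 (SE 0.071, adjusted p = 0.436), with a mean signal of 1069. The rise by adjusted p was thus at the promoter shared with DNAL4. SYNE2, which encodes nesprin-2, had a value of -0.08 (SE 0.078, adjusted p = 0.43) at its canonical start, at chr14:63852389-63854466 with a mean signal of 788. A region at an internal start, at chr14:64112952-64113611 and centred 260277 bp downstream of the canonical start, was called higher at 0.70 (SE 0.18, adjusted p = 0.000735), with a mean signal of 113. It lies in an intron both of SYNE2 and of ESR2, the gene of an estrogen receptor on the other strand, and exceeded the value at the canonical start by 0.78 (95% interval 0.38 to 1.17). The third SYNE2 promoter region had a value of -0.09 (adjusted p = 0.372).

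In order of the promoter values, the genes ran from LMNB1 through TMPO, BANF1, LEMD3, LMNA, SYNE2, LBR, LMNB2 and SUN1 to SUN2. Of the 45 pairs of genes, 27 had an interval of the difference that left out 0. Among the 9 pairs of neighbours in that order this held for 1, TMPO and BANF1, which were apart by 0.23 (95% interval 0.03 to 0.43). LMNB1 and TMPO were apart by 0.12 (95% interval -0.05 to 0.29). The place of some genes depended on the region that stands for them. As the mean of its promoter regions weighted by signal, SUN1 was -0.05 and BANF1 -0.27, and at the canonical start LMNA was -0.26. SUN2, last in the order at 0.26, was 0.10 as that mean and 0.05 at its canonical start. The 27 pairs were counted on the strongest region of each gene, which for SUN2 is the region shared with DNAL4.

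Larger changes lay at distal regions, in both directions. Of the 36 distal regions, 4 were called higher and 6 were called lower, which is 11.1% and 16.7%, against 17.4% and 10.9% of the 55157 distal regions within 100 kb of a coding start. By the adjusted p alone, 5 were higher and 10 were lower, which is 13.9% and 27.8%, against 23.0% and 19.7% of those regions. The median log2 fold change was -0.12, against 0.03 for those regions, and 23 of the 36 values were negative. The median mean signal of the members was 132, against 88.4, and the median over those regions went from 0.21 under a mean signal of 50 to -0.12 over 1000. With 36 regions, no difference from the background was tested. BANF1 had no distal region.

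**Figure D2:**
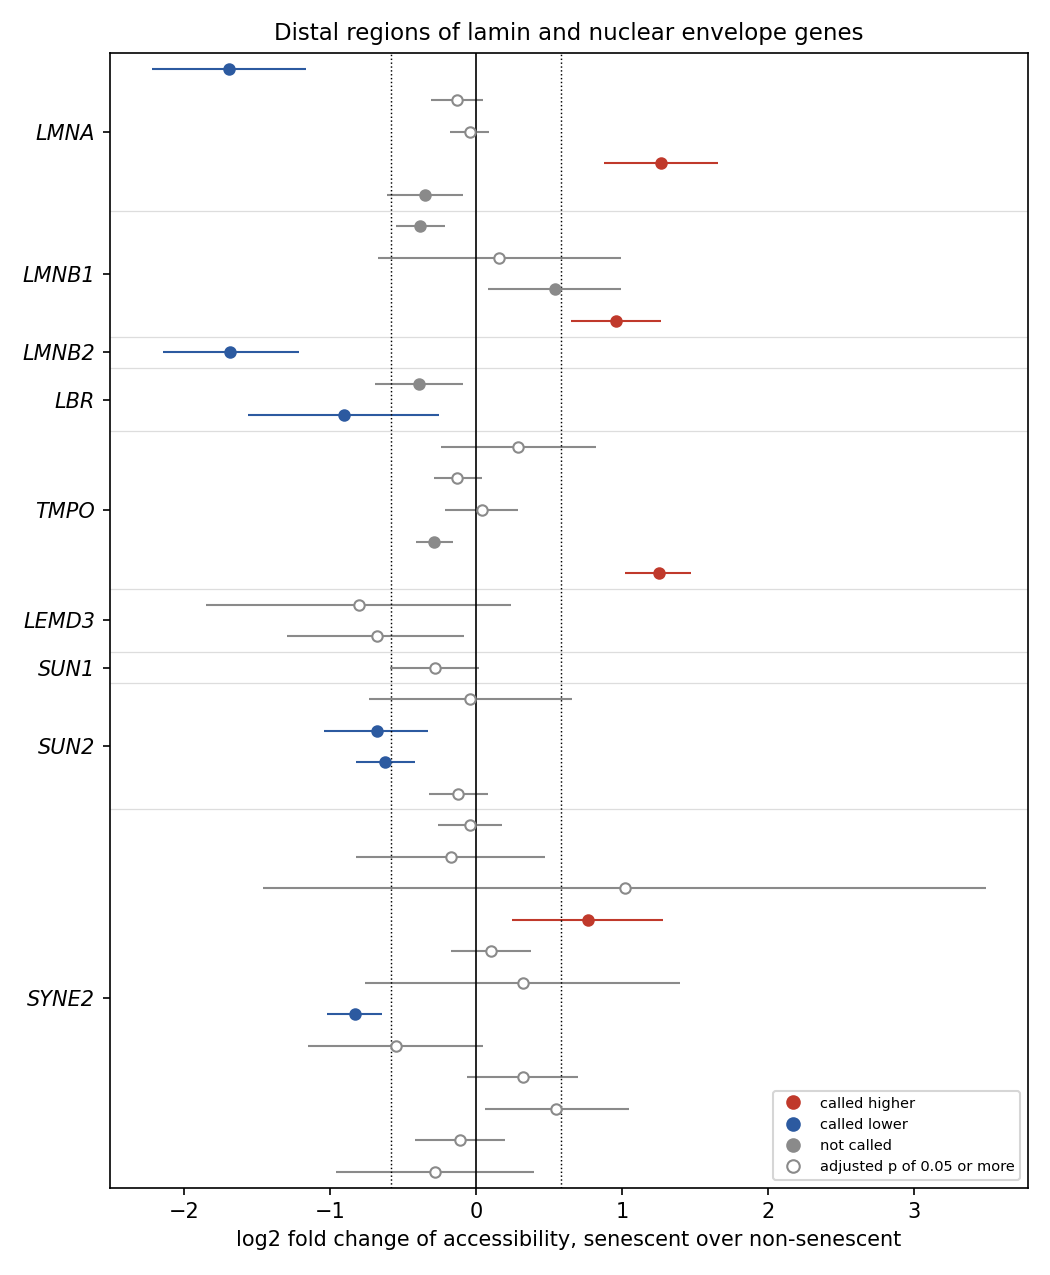
Log2 fold change with its 95% interval at each of the 36 distal regions, grouped by gene and ordered along the direction of transcription. Dotted lines mark 0.58 on either side of 0, and the 10 coloured points are the called regions, 4 higher and 6 lower.

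At LMNA, distal regions changed in opposite directions while none of its promoter regions was called. An intronic region at chr1:156089774-156090048, with a mean signal of 63.2 and centred at -24800 bp from the canonical start, was called lower at -1.69 (SE 0.27, adjusted p = 5.34e-09), a level 0.31 times that of non-senescent cells. The adjacent region at chr1:156090284-156091168, with a mean signal of 518, had a value of -0.13 (adjusted p = 0.256). A region in an intron at chr1:156123641-156124052, centred 9135 bp past the canonical start and with a mean signal of 102, was called higher at 1.27 (SE 0.2, adjusted p = 1.95e-09), a 2.41-fold rise. Against the strongest promoter region these differed by -1.60 (95% interval -2.14 to -1.06) and by 1.36 (95% interval 0.96 to 1.76). Their middles lay 3429 and 2314 bp from the nearest coding start of LMNA, so their place among distal regions rests on the 2 kb limit. The strongest distal region, at chr1:156104082-156104571 with a mean signal of 995, had a value of -0.04 (adjusted p = 0.637). The remaining one, at chr1:156129958-156130851 with a mean signal of 253, was at -0.35 (SE 0.13, adjusted p = 0.0241), short of the fold limit.

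**Figure D3:**
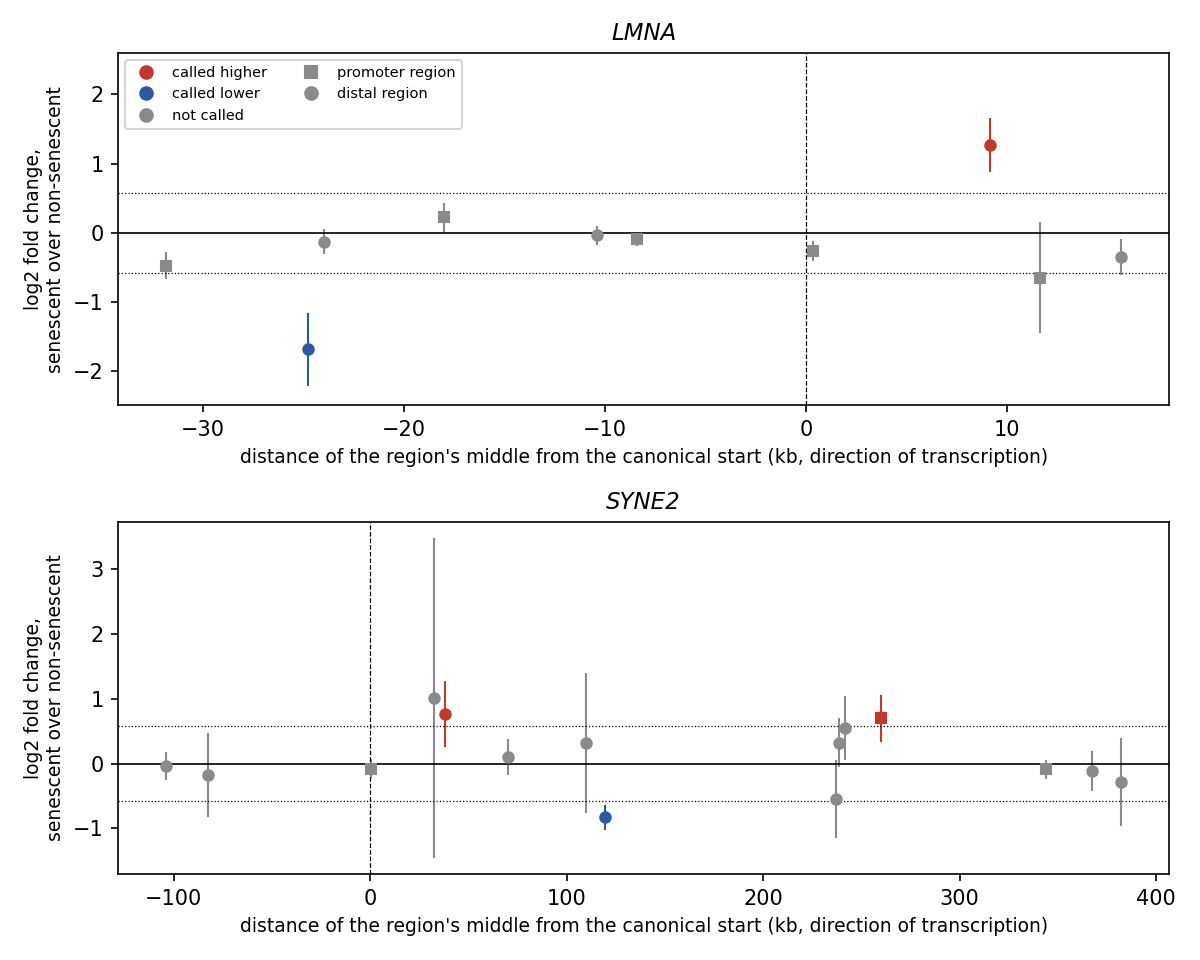
Log2 fold change with its 95% interval against the distance of each region's middle from the canonical start, in kb along the gene, for LMNA and SYNE2. Called regions of opposite direction lie within each gene, and the promoter squares of LMNA lie between -0.66 and 0.22.

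At LMNB1, a distal region rose while the promoter fell. The region at chr5:126831192-126831623, in an intron and centred 54271 bp past the canonical start, had a mean signal of 156 and a log2 value of 0.96 (SE 0.16, adjusted p = 1.68e-08), a 1.95-fold rise. It lay 1.47 above the promoter (95% interval 1.14 to 1.80). A second intronic region was at 0.54 (SE 0.23, adjusted p = 0.049), short of the fold limit, with a mean signal of 70.9. On the other side of the start, the strongest distal region, at chr5:126758397-126759409 in an intron of LMNB1-DT, had a mean signal of 635 and a value of -0.38 (SE 0.086, adjusted p = 7.1e-05). The remaining region was at 0.16 (adjusted p = 0.788), with a mean signal of 21.5.

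At LMNB2, a distal region fell. Its only distal region, at chr19:2461814-2462598 in intergenic DNA and centred at -5247 bp from the canonical start, had a mean signal of 99.1 and a log2 value of -1.68 (SE 0.24, adjusted p = 3.12e-11), a level 0.313 times that of non-senescent cells. The difference from the promoter was -1.83 (95% interval -2.34 to -1.32). The non-coding gene LINC01775 starts within 2 kb, so that the region may count as a promoter of that gene. Its printed sequence holds both an E2F and a CHR motif, elements known from cell-cycle promoters, and such a pair was found in 78 of the 55157 distal regions, which is 0.141%. The comparison was made after the pair had been seen, and the SUN1 promoter region at the canonical start, at 0.17 (adjusted p = 0.659), holds both motifs too.

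At TMPO, the promoter fell and a coding exon rose. The region at chr12:98533558-98534211, with a mean signal of 320, was at 1.25 on the log2 scale (SE 0.12, adjusted p = 5.47e-25), a 2.37-fold rise and the smallest adjusted p of the 61 regions. It lay 1.64 above the promoter (95% interval 1.38 to 1.90). The region falls within exon 4 of the transcript TMPO-202, at chr12:98532823-98535634, an exon that 1 of the 6 coding transcripts holds. The large alternative exon of TMPO encodes the part specific to LAP2 alpha, the isoform that lacks a membrane anchor and binds A-type lamins in the nuclear interior. The strongest distal region of TMPO, at chr12:98502855-98504596 in an intron of LINC02453, had a mean signal of 1478 and a value of -0.29 (SE 0.064, adjusted p = 4.95e-05), and the other 3 ranged from -0.13 to 0.29 with adjusted p of at least 0.236.

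Both LBR distal regions were below 0. The weaker one, at chr1:225441621-225442034 with a mean signal of 41.2, was called lower at -0.90 (SE 0.33, adjusted p = 0.0187), and the stronger one, at chr1:225474599-225475549 with a mean signal of 159, had a value of -0.39 (SE 0.15, adjusted p = 0.0298). LEMD3 had 2 distal regions, at -0.80 (SE 0.53, adjusted p = 0.223) and -0.68 (SE 0.31, adjusted p = 0.0597), with mean signals of 12.8 and 48.5. The second was at -0.84 (adjusted p = 0.0186) without the signal trend and at -0.64 (adjusted p = 0.0863) without both trends.

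Among the LINC genes, SUN2 had 2 distal regions called lower and none called higher. The first, at chr22:38745935-38746642 and with a mean signal of 423, the highest of its distal regions, was at -0.62 (SE 0.1, adjusted p = 2.81e-08). The other, at chr22:38760748-38761482 with a mean signal of 145, was at -0.68 (SE 0.18, adjusted p = 0.000698). Both are intronic and passed the fold limit by little, and without the trend on GC content they were -0.54 and -0.51, short of it. The only distal region of SUN1, at chr7:861219-861872 with a mean signal of 167, had a value of -0.28 (SE 0.15, adjusted p = 0.132). SYNE2 had 12 distal regions, with changes in both directions. An intronic region at chr14:63971947-63973373, with a mean signal of 446, the highest of them, was called lower at -0.83 (SE 0.098, adjusted p = 1.06e-15), which is 0.75 below the promoter (95% interval of the difference -0.99 to -0.50). A region at chr14:63890899-63891383 with a mean signal of 60.1 was called higher at 0.77 (SE 0.26, adjusted p = 0.0107), and was 0.60 (adjusted p = 0.0558) without both trends. The other 10 had mean signals from 8.52 to 318 and values from -0.55 to 1.02, with adjusted p of at least 0.063.

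**Figure D4:**
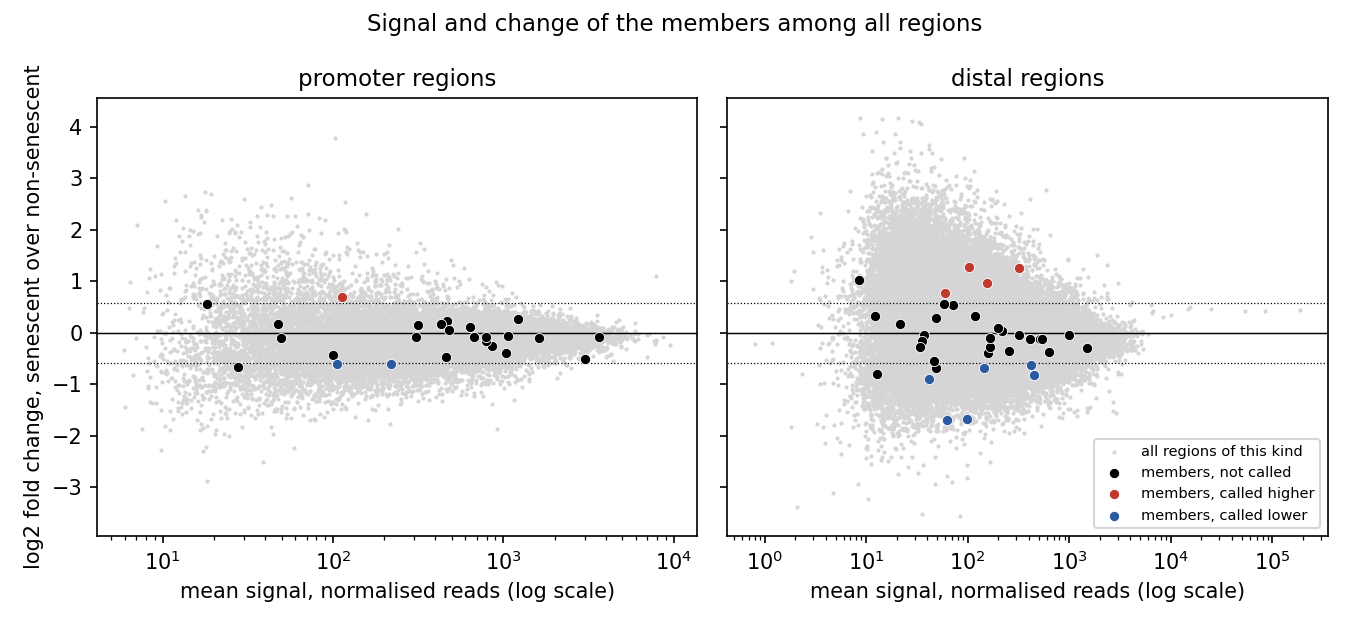
Mean signal on a log scale against log2 fold change, for promoter regions on the left and distal regions on the right, with the members over all regions of the same kind in grey. The called members of both kinds have mean signals between 41.2 and 446, and LMNB1 and LMNA are the uncalled promoter points at the far right.

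The called regions had less signal than the strongest promoter region of each member except LMNB2 (315) and SUN1 (430). Their mean signals ran from 41.2 to 446, while the 7 promoter regions with a mean signal of 854 or more had values between -0.51 and 0.26. Among distal regions, the called ones of SUN2 at 423 and of SYNE2 at 446 were the strongest of their genes. SE fell with signal, from a median of 0.36 in promoter regions under a mean signal of 50 to 0.062 over 1000, and 4 of the member promoter regions and 11 of the distal ones were under 50. A test of a fold change over 1.5 held for 4 of the 13 called regions, which were the lower and higher LMNA regions, the LMNB2 region and the TMPO exon.

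None of the motifs was found in every member region. In 300 bases around the middle of each region, AP-1 was found in 6 of the 36 distal regions (16.7%, against 11.3% of all distal regions within 100 kb), FOX in 6 (16.7% against 9.26%), the CCAAT box in 11 (30.6% against 29.4%), CHR in 8 (22.2% against 19.8%) and the single p53 arm in 5 (13.9% against 8.59%). Below the share of all those regions were MAF in 2 (5.56% against 7.66%), the E-box in 1 (2.78% against 5.02%), CTCF in 1 (2.78% against 3.77%), ETS in 0 (0.0% against 1.89%) and CRE in 0 (0.0% against 0.319%). In the 25 promoter regions, the GC box was found in 11 (44% against 55.5% of all promoter regions), the CCAAT box in 8 (32.0% against 24.2%), CHR in 4 (16.0% against 8.63%) and E2F in 2 (8.0% against 3.61%). FOX and CRE were found in 0, against 3.13% and 1.41% of all promoter regions. Also below the background were the E-box in 1 (4.0% against 6.64%), ETS in 2 (8.0% against 9.58%) and MAF in 1 (4.0% against 4.32%). The single p53 arm was in 1 (4.0% against 5.25%). Above it were AP-1 in 2 (8.0% against 4.5%), homeodomain in 1 (4.0% against 2.41%) and CTCF in 1 (4.0% against 1.12%). The 2 promoters with E2F were those of TMPO and of SUN1 at its canonical start. Member promoter regions had a median GC content of 61.9%, against 62.2%, and a median width of 659 bp, against 975 bp, while distal ones had 45.7% against 47.0% and 608 bp against 487 bp.

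The rest of the nuclear envelope was described through 3 lists of genes, each gene with its strongest promoter region. Other lamina, LEM-domain and LINC genes had a promoter region for 18 of 20, not for SUN3 and SUN5. Of the 18, 1 was called higher and 0 lower, which is 5.56% and 0.0%, against 1.53% and 7.59% of the strongest regions of all genes. By adjusted p alone 4 were higher and 4 lower, which is 22.2% each, against 8.57% and 39.1%. The called gene was MLIP, which encodes a lamin-interacting protein of muscle, at 1.13 (SE 0.39, adjusted p = 0.0118) and a mean signal of 25.1. By adjusted p alone, SYNE4 (0.26), LEMD2 (0.25) and VPS4A (0.25), an ATPase of envelope repair, rose with it, and TOR1AIP1 (-0.32), which encodes a lamina-associated membrane protein, NRM (-0.31), SYNE1 (-0.19) and TMEM120A (-0.18) fell. The median log2 fold change was 0.06. EMD, the gene of emerin, was at -0.09 (adjusted p = 0.131).

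The list of lamin processing genes, drawn broadly to hold CTDNEP1 and LPIN1 too, had a promoter region for 9 of 10, not for PRKCB. In it, 0 were called in either direction, and by adjusted p alone 0 were higher and 4 lower (44.4%), at a median of -0.20. These 4 were ZMPSTE24, the protease that matures prelamin A, at -0.36 (adjusted p = 5.42e-08), CDK1, which phosphorylates lamins in mitosis, at -0.33 (adjusted p = 3.72e-06), FNTB, a farnesyltransferase subunit, at -0.25 (adjusted p = 0.000635), and CTDNEP1 at -0.20 (adjusted p = 0.00106). Nuclear pore genes had a promoter region for 32 of 32, with 0 called. By adjusted p alone 0 were higher and 18 lower (56.2%), at a median of -0.20. The largest falls were at NUP85 (-0.53), NUP188 (-0.53, in a region shared with DOLK) and NUP54 (-0.50). Of the 13813 strongest regions, which stand for 15493 genes, 1.53% were called higher and 7.59% lower, by adjusted p alone 8.57% were higher and 39.1% lower, and the median was -0.13. The 10 members had 1 higher and 2 lower by adjusted p alone and a median of -0.09.

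**Figure D5:**
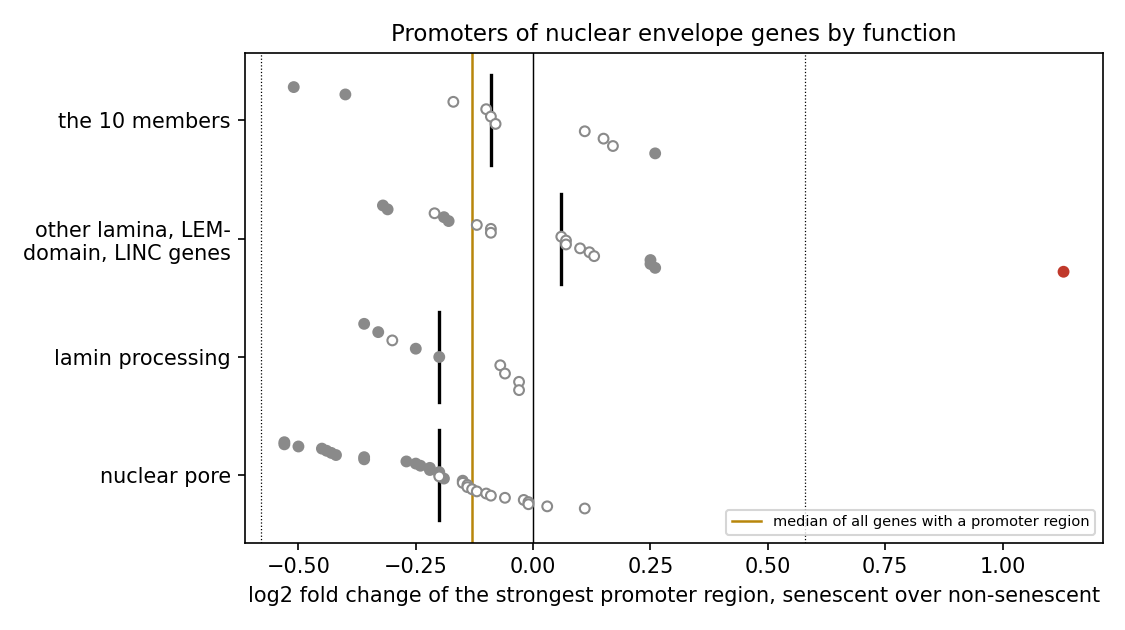
Log2 fold change of the strongest promoter region of each gene, by group, with 1 point per gene, filled where the adjusted p is under 0.05. Black bars are group medians (-0.09, 0.06, -0.20 and -0.20 from top to bottom), the coloured line is the median of all genes at -0.13, and MLIP is the only point past the dotted fold limit.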

How the data were processed

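ATAC-seq data of 3 senescent and 3 non-senescent libraries were used, grouped by their labels. As the study's methods state, the authors used Trim Galore and cutadapt for trimming and Bowtie2 for alignment to hg38, discarded mitochondrial reads and Picard duplicates, shifted reads by the transposase offset with deepTools, called peaks with MACS2 and compared reads under the union of peaks with DESeq2. Versions are not given in the sources used here. The mean signal in the deposited table is the authors' size-factor normalised count averaged over all libraries. The deposited log2 fold change and SE, the Wald score, and each p-value, raw or adjusted, come from the authors' fit and are read here as measurements because the table has no per-library column (0 such columns were left unused). It was checked that score, p-value and adjusted p-value follow from fold change and SE in all 108542 regions.

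Members, lists, markers and motifs were chosen with earlier results of these data known. Start sites, exons and canonical transcripts came from GENCODE 44, sequence from hg38 and RefSeq. Table coordinates are printed as given, since their first base (0 or 1) is not stated. Printed sequences count from 1. The sequence of 1 called promoter region is not reported here. Named were all members at the strongest promoter region, every called member region, the strongest distal region of each member and the list genes with a called promoter. Other regions and list genes named by adjusted p alone, and the printed LMNB1, TMPO and distal sequences, were chosen after their values were seen. Differences between regions carry 95% normal intervals and no p-value. Alternatives were an adjusted p under 0.01, no fold limit, a Wald test of a fold over 1.5, a mean signal of at least 50, median centring, removal of running medians over 1000 regions on each side by mean signal and GC content, promoter windows of 1 and 0.5 kb, a distal limit of 50 kb, starts of all genes and other regions per gene. Scripts used Python 3.11.15, pandas 2.3.3, numpy 2.4.6, scipy 1.17.1 and matplotlib 3.10.9 and were tested on simulated data.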

Additional observations from a re-analysis of the deposited data

How the results depend on the processing

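Without a fold limit, promoter regions were 2 higher and 6 lower, distal ones 10 lower, list promoters 4 higher and 4 lower for lamina, LEM-domain and LINC genes, 4 lower for lamin processing genes and 18 lower for nuclear pore genes. Under the test of a fold over 1.5, promoter regions were 0 higher and 0 lower, and distal ones 2 and 2. Lower promoter regions numbered 1 without the signal trend, 1 without the GC trend and 0 without both. In windows of 1 and of 0.5 kb, 1 was lower, of 23 and of 21 promoter regions. With starts of all genes, 2 of 27 promoter regions were higher and 2 lower. That setting left 19 distal regions, of which 3 were higher and 4 lower. Over all 108542 regions, the main limits called 16755 higher and 11151 lower. Without a fold limit these were 22711 and 23184, and under the test of a fold over 1.5 they were 4168 and 1992. Totals were 14110 and 12649 without the signal trend, 14374 and 12733 without the GC trend and 13209 and 13086 without both. For that test and the trends, promoter and distal regions were not counted apart. Shares over all regions were not counted for other windows and starts. MLIP lost its call at an adjusted p under 0.01 and without both trends, leaving 0.

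Uncalled values changed sign. Without the signal trend, the GC trend and both, the strongest LMNA promoter was 0.0, 0.05 and 0.08, the strongest distal LMNA region 0.07, 0.07 and 0.13, LEMD3 0.02, 0.05 and 0.10, and SYNE2 0.03, 0.07 and 0.11. Without both, BANF1 was 0.02 and SUN1 at its canonical start -0.08, and without the signal trend SUN1 was -0.01. Of 60 counts under alternatives 41 were within 1.5 times. Of 244 values of regions and of genes, 195 held. For a region that means the same direction and call. For a gene under another choice of region, it means a value within the SE of its strongest region. An adjusted p under 0.01, no fold limit and the test of a fold over 1.5 leave the log2 value unchanged. No direction could change under them. A region not called by the main limits could not be called at an adjusted p under 0.01 or by the 1.5-fold test. Likewise, a called region had to stay called without a fold limit. A count of 0 had to stay 0 at an adjusted p under 0.01. Such results, fixed in advance, are among those that held. The cause of the changes was not tested. The canonical start as the region of a gene was an alternative chosen after seeing the data. No paired analysis was possible because the deposited table gives no values by library, and edgeR, a filter on counts in each library, leaving out replicates and the replicate block were not run for that reason.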
